A study of Mus musculus with 9 samples.

Results

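The 8 genes described here, Hmgcs1, Mvd, Fdps, Fdft1, Sqle, Lss, Cyp51 and Dhcr7, encode enzymes of the mevalonate and sterol pathway that makes cholesterol. They were chosen by symbol, and all 8 were found among the 21356 named genes of the table and among the 14029 genes tested. Bulk poly-A RNA sequencing was done on dissected midbrain of C57BL/6 mouse fetuses at E13.5, in 9 libraries. The floxed control (Gpr161f/f, 3 libraries) carried the loxP-flanked allele on both chromosomes and no Cre. The Cre control (Gpr161f/+;Wnt1-Cre, 3 libraries) carried 1 floxed allele and the Wnt1-Cre transgene, and the cKO (Gpr161f/f;Wnt1-Cre, 3 libraries) carried both floxed alleles and the transgene. All 9 libraries therefore carried at least 1 floxed allele, and the Cre and cKO libraries shared the transgene. In the study, Wnt1-Cre recombined first in the dorsal midbrain neuroectoderm, also marked neural crest, and was later expressed more widely over midbrain and hindbrain. Cells outside the Wnt1-Cre lineage kept the gene, and their share in the dissected tissue is not given. The transgene itself is known to bring ectopic Wnt1 expression. The labels do not say whether a library is 1 fetus or a pool, or which fetuses were littermates, so the p-values measure the spread between these libraries.

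Cholesterol is built from acetyl-CoA. Units of acetyl-CoA are joined and reduced to mevalonate, mevalonate is turned into isoprenoid diphosphates, these are joined to squalene, and squalene is closed into lanosterol, which is trimmed and reduced to cholesterol. The pathway is under the sterol-sensing transcription factor SREBP-2, which is released from the endoplasmic reticulum when membrane sterol is low and binds sterol regulatory elements in the promoters of these genes. In the embryonic brain the pathway is known for its link to Hedgehog signaling: Hedgehog ligands carry a cholesterol, sterols bind Smoothened, and loss of DHCR7 causes Smith-Lemli-Opitz syndrome. Gpr161 is a ciliary receptor that holds Hedgehog signaling down, and the comparison asks whether the sterol genes differed in the midbrain after its deletion.

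RefSeq promoter windows (GRCm38.p6) were held for 5 of the 8 genes, Hmgcs1, Mvd, Lss, Cyp51 and Dhcr7, and not for Fdps, Fdft1 and Sqle. The 250 bases before each start were searched on both strands for the sterol regulatory element TCACNCCAC, the CCAAT box CCAAT bound by NF-Y, and the GC box GGGCGG bound by Sp1, since SREBP is known to act next to these factors. Windows of 3 genes are shown, cut where an annotated transcript begins, because they are clear of annotated exons and show the spacing of the motifs. The capitals mark the motifs, and a CCAAT box or GC box on the other strand reads ATTGG or CCGCCC.
Hmgcs1, plus strand, chr13:119690101-119690350: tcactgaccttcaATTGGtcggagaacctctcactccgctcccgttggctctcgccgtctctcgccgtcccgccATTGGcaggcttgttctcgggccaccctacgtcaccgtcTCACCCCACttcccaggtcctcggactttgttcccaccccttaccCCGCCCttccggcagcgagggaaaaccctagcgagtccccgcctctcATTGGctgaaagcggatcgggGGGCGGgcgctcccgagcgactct
Mvd, minus strand, chr8:122443423-122443672: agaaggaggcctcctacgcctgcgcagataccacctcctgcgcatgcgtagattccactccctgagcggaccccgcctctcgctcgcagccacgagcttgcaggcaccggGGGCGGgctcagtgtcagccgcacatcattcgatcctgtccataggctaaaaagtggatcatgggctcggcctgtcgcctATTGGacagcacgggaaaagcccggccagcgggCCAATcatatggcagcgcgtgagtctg
Lss, plus strand, chr10:76531355-76531587: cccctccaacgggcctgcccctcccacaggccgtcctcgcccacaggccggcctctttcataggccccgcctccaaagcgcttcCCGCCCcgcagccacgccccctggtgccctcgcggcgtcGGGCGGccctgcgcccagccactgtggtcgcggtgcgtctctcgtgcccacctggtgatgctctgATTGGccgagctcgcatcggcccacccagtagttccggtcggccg

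The Hmgcs1 window held the sterol regulatory element, with its first base at -137 from the start, with 3 CCAAT boxes and 2 GC boxes. The Mvd window held 2 CCAAT boxes and 1 GC box, and the Lss window 1 CCAAT box and 2 GC boxes. The TCACNCCAC letters were in 1 of the 5 genes with a window, in 0 of 12 other sterol pathway genes with a window, and in 1.05% of all 32851 windows. A CCAAT box was in all 5 genes and in 10 of the 12 other pathway genes, against 33.8% of all windows, and a GC box in all 5 and in 11 of 12, against 32.7%. Genes with several starts were counted once if any window held the motif, while the shares of all windows count each window. By window, 5 of the 7 windows of the 5 genes held a CCAAT box and 6 of 7 a GC box. Dhcr7 had its CCAAT boxes only in the window at chr7:143829964-143830213, which overlaps its annotated exons. These are matches of letters, and no match says only that the letters are not in these 250 bases.

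The 8 genes lie on 8 chromosomes (GENCODE M21, GRCm38). Hmgcs1 is at chr13:119690379-119708260 on the plus strand, Sqle at chr15:59315077-59331192, Lss at chr10:76531588-76557138 and Dhcr7 at chr7:143823145-143848410, all on the plus strand. Mvd is at chr8:122433601-122443422, Fdps at chr3:89093588-89101959, Fdft1 at chr14:63145150-63179578 and Cyp51 at chr5:4081145-4104746, all on the minus strand. The table gives 1 value per gene over all its transcripts.

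The deposited values are on a log2 scale, normalized between libraries, and a difference of 1 is a 2-fold change. Gpr161, the targeted gene, was between 11.74 and 11.80 in the floxed control, 11.77 and 11.96 in the Cre control and 11.74 and 11.95 in cKO. The libraries labelled cKO were thus not lower in Gpr161 (log2 difference 0.106, adjusted p = 0.223 with limma against the floxed control). The table does not separate exons, so this value cannot check the deletion. Gli1, a Hedgehog target, was 8.55 to 8.71 in the floxed control, 8.60 to 8.69 in the Cre control and 9.60 to 9.80 in cKO. Midbrain markers (7 genes) had a summed level between 13.80 and 14.12 in all libraries, forebrain markers (2 genes) between 10.08 and 10.56 and hindbrain markers (3 of 4 tested, without Hoxb1) between 8.375 and 9.04. Against the floxed control 2 of the hindbrain markers were lower in cKO, and of the 7 midbrain markers 1 was higher and 2 were lower, where 38.3% of all genes passed. Against the Cre control 1 midbrain marker was higher, where 9.72% of all genes passed. Cre control 1 stood apart from the other controls: its summed neuronal markers were 16.87 against 17.10 and 17.16 in the other Cre controls, and its Y-linked genes summed to 10.07 against 12.04 and 12.02. Floxed control 2 also had a low Y-linked sum (9.84), and the choroid plexus sum was 11.56 to 13.87 in the floxed control, 10.30 to 12.66 in the Cre control and 10.75 to 11.57 in cKO, highest in floxed controls 2 and 3.

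To compare levels between genes, the log2 value was taken per kilobase of the longest coding transcript. On this scale the order was Hmgcs1 (12.34), Fdps (11.25), Sqle (10.57), Cyp51 (10.55), Fdft1 (9.85), Mvd (9.02), Dhcr7 (8.91) and Lss (8.66), as means over the 9 libraries, and the median of 13842 genes with a coding length was 7.97. Hmgcs1 was at or above 98.2% of these genes and Lss at or above 64.0%, so all 8 enzymes were in the upper part of the midbrain transcriptome. The steps from Sqle to Cyp51 and from Mvd to Dhcr7 were smaller than the spread of those genes over the libraries, while the other steps were larger. The order was the same in the means of each of the 3 genotypes.

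None of the 8 genes passed the test in any of the 3 comparisons of genotypes. Hmgcs1, the cytosolic synthase that makes HMG-CoA and the first of the 8 in the pathway, was at 14.17, 14.14 and 14.19 in the floxed control, at 13.96, 14.10 and 14.21 in the Cre control and at 14.16, 14.11 and 14.16 in cKO. The cKO libraries lay within the range of the Cre controls and overlapped the floxed controls. Mvd, the decarboxylase that ends the mevalonate steps and yields isopentenyl diphosphate, was at 9.80, 9.75 and 9.83 in the floxed control, at 9.69, 9.81 and 9.90 in the Cre control and at 9.96, 9.86 and 9.88 in cKO. Its cKO libraries were all above the floxed controls by a small step and overlapped the Cre controls. Fdps, which builds farnesyl diphosphate for sterols and for protein prenylation, was at 11.65, 11.63 and 11.68 in the floxed control, at 11.64, 11.75 and 11.83 in the Cre control and at 11.80, 11.71 and 11.76 in cKO. Again the cKO libraries were above every floxed control, and they lay inside the range of the Cre controls. Cre controls 2 and 3 were above the floxed controls for Fdps as well.

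The next enzymes act on squalene. Fdft1, the squalene synthase at the branch point into sterols, was at 11.78, 11.73 and 11.78 in the floxed control, at 11.59, 11.76 and 11.83 in the Cre control and at 11.73, 11.66 and 11.73 in cKO. Its cKO libraries overlapped both controls, at the low side of the floxed control. Sqle, the squalene epoxidase and a rate-limiting step, was at 12.02, 12.01 and 12.08 in the floxed control, at 11.87, 12.06 and 12.11 in the Cre control and at 12.03, 12.03 and 12.10 in cKO, so that apart from Cre control 1 the 8 libraries lay within a narrow band. Lss, which closes the rings to give lanosterol, was at 10.85, 10.80 and 10.89 in the floxed control, at 10.83, 10.91 and 10.99 in the Cre control and at 10.93, 10.93 and 10.78 in cKO. For Lss the lowest library of all was cKO 3, with the other cKO libraries above every floxed control.

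The last enzymes modify the ring system. Cyp51, the lanosterol demethylase, was at 12.56, 12.50 and 12.56 in the floxed control, at 12.43, 12.49 and 12.62 in the Cre control and at 12.55, 12.47 and 12.54 in cKO. Dhcr7, the reductase that makes cholesterol from its dehydro precursor, was at 10.43, 10.36 and 10.36 in the floxed control, at 10.28, 10.44 and 10.47 in the Cre control and at 10.43, 10.42 and 10.41 in cKO. The 3 cKO libraries of Dhcr7 differed by little, and all groups overlapped for both genes.

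**Figure D1:**
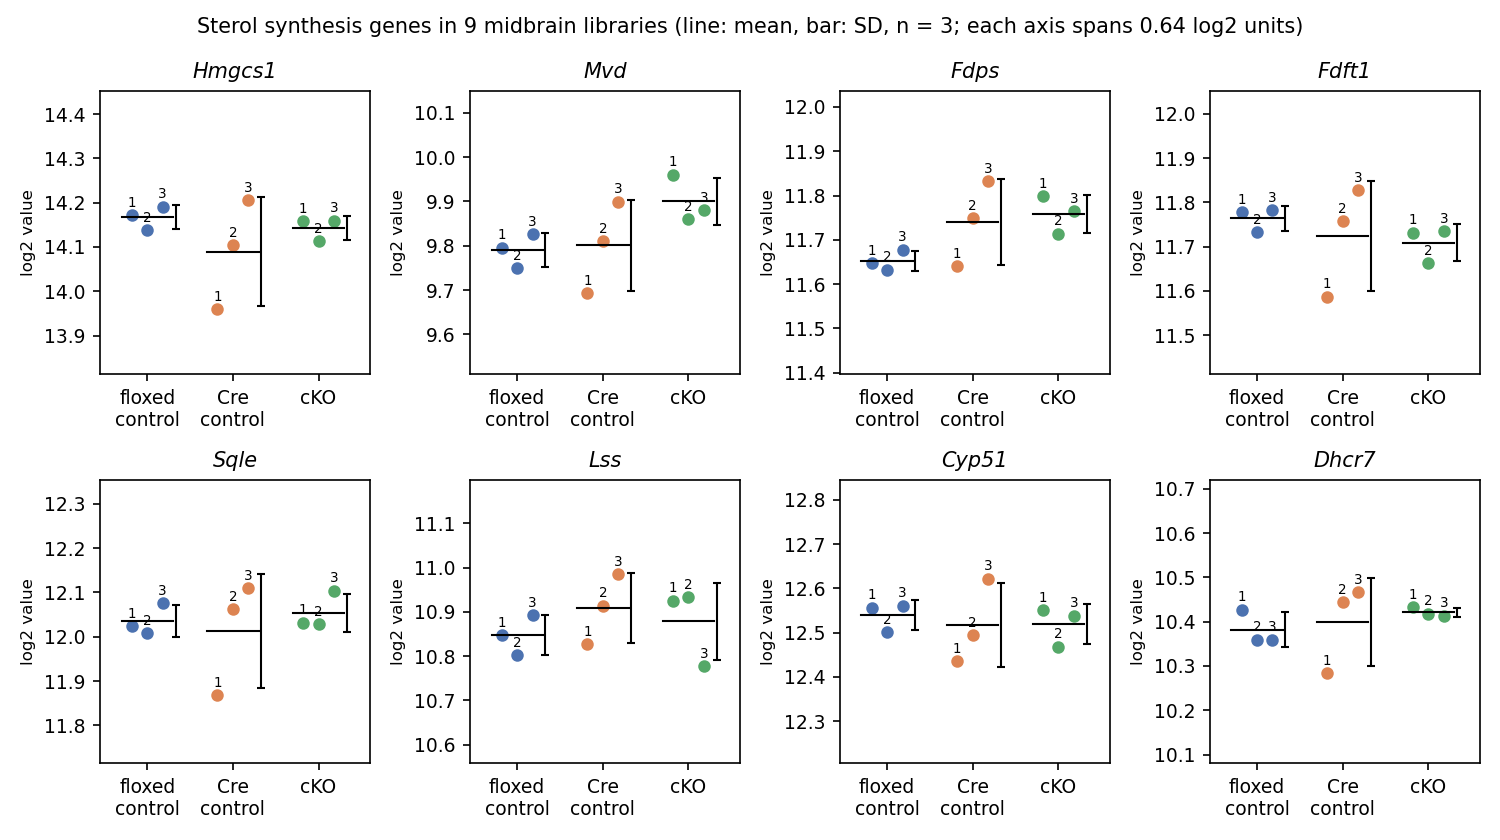
Log2 value of each of the 8 genes in the 9 libraries, with points numbered by replicate, a line at the group mean and a bar for the SD (n = 3). Each panel spans the same number of log2 units, the groups lie on top of each other for most genes, and Cre control 1 is the lowest point for 6 of the 8 genes.

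Against the floxed control, 0 of 8 genes passed an adjusted p of 0.05 with limma, where 38.3% of all genes tested did (19.5% higher in cKO and 18.8% lower). None had an unadjusted p under 0.05 either, against 48.1% of all genes. With the fold limit of 1.5, 0 of 8 passed, against 2.92% of all genes. The log2 differences ran from -0.055 (SE 0.057) for Fdft1 to 0.109 (SE 0.057) for Mvd, with a median of 0.025, and the adjusted p-values from 0.115 for Fdps to 0.823 for Sqle. Mvd and Fdps (0.107, SE 0.050) were the 2 of 8 genes whose cKO libraries did not overlap the floxed controls, against 57.1% of all genes. With only the 6 libraries compared, or after quantile normalization, Fdps passed (adjusted p = 0.032 and 0.0365 with limma), where 44.3% and 38.4% of all genes did.

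Against the Cre control, 0 of 8 genes passed, where 9.72% of all genes tested did (4.86% higher and 4.85% lower, and 0.563% with the fold limit). The differences ran from -0.030 (SE 0.056) for Lss to 0.099 (SE 0.057) for Mvd, with adjusted p-values from 0.274 to 0.984, and 0 of 8 had groups that did not overlap, against 31.5% of all genes. Without Cre control 1, 0 of 8 still passed, where 23.5% of all genes did. The sign then turned to negative for 5 genes whose difference was near 0: Hmgcs1 (from 0.054 to -0.012), Fdps (0.018 to -0.032), Sqle (0.041 to -0.032), Cyp51 (0.002 to -0.039) and Dhcr7 (0.023 to -0.034). For Hmgcs1, Sqle and Dhcr7 the sign turned without Cre control 1 and with none of the other 5 libraries left out, while Cyp51 also turned without cKO 1, cKO 3 or Cre control 2 and Fdps without cKO 1.

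Between the controls, 0 of 8 genes passed, where 0.057% of all genes tested (8 genes) did. The differences ran from -0.078 (SE 0.058) for Hmgcs1 to 0.088 (SE 0.050) for Fdps, with adjusted p-values from 0.373 to 0.940, and 0 of 8 had groups that did not overlap, against 22.8% of all genes. None of the 8 had an unadjusted p under 0.05 in this comparison or against the Cre control, where 17.5% and 29.3% of all genes did. All 3 comparisons share libraries, so their values are given side by side and not as separate evidence.

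The intervals show how large a difference could have been missed. With the floxed control as reference the 95% intervals of the 8 genes lay between -0.183 and 0.237, against the Cre control between -0.155 and 0.227, and between the controls between -0.207 and 0.199. All of them were inside the 1.5-fold limit of 0.585 on the log2 scale. So were the intervals of 12555, 13441 and 13720 of all 14029 genes in these comparisons. The median size of the difference, without its sign, was 0.035 for the 8 genes and 0.129 for all genes with the floxed control as reference, 0.027 and 0.088 with the Cre control, and 0.031 and 0.068 between the controls. The median SE was 0.057 for the 8 genes and 0.060 for all genes, so the small differences did not come with a wider error. For Sqle, 91.9% of all genes tested had a larger difference from the floxed control, and for Mvd 56.4% did. Against the Cre control 44.7% had a larger difference than Mvd, and between the controls 39.7% had a larger one than Fdps. In bulk tissue, fewer cells of a type and less RNA per cell cannot be told apart, and a like level in the whole tissue can hold levels that differ between its cells.

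**Figure D2:**
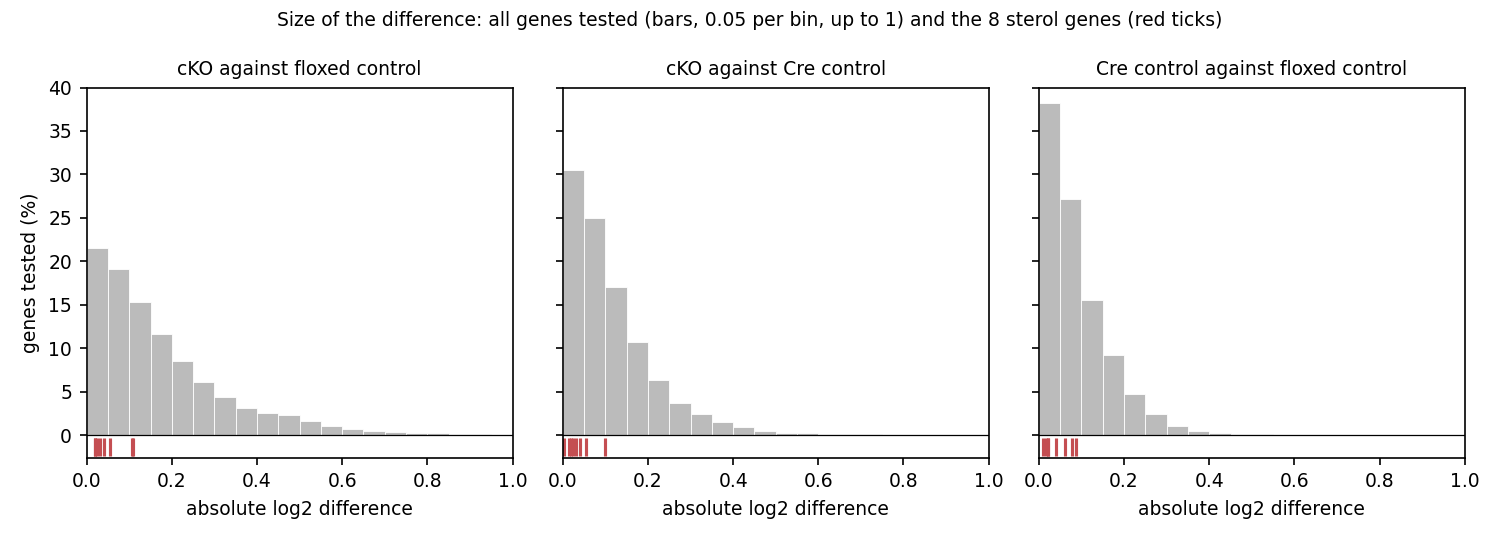
Share of all 14029 genes tested (bars, percent) by the size of the log2 difference in each comparison, with the 8 sterol genes as red ticks under the axis. The ticks sit at the low end of each panel, up to 0.109 against the floxed control, while the bars reach further to the right in the cKO comparisons; bars beyond 1 are not drawn.

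Across the 9 libraries the 8 genes moved together, but not by genotype. Each gene was centred on its own mean and the 8 were averaged: the mean was -0.120 in Cre control 1 and 0.087 in Cre control 3, and between -0.041 and 0.042 in the other libraries. Cre control 1 was the lowest library for 6 of the 8 genes (the exceptions were Fdps and Lss), and Cre control 3 the highest for 7 of 8 (the exception was Mvd, highest in cKO 1). The largest spread of the set was thus within a control group. Over the 28 pairs of genes, Pearson's r over 9 libraries ran from 0.308 to 0.903 with a median of 0.650. After each gene was centred within its genotype the median was 0.864, and without Cre control 1 it was 0.418, with a range from -0.014 to 0.937. These are descriptions over 9 libraries that share the authors' normalization. With the mean of the other 7, each of the 8 genes had an r of 0.513 to 0.857 (median 0.808). The other 14021 genes tested had an r of -0.973 to 0.95 with the mean of the 8 (median 0.045), where positive and negative values offset each other. Of them 1492 were above 0.5, so many genes outside the pathway shared the pattern. Without Cre control 1, 771 were above 0.5.

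Lss was the least like the others (r = 0.513 with the mean of the other 7), and Sqle the most (r = 0.857). Without Cre control 1 both ends changed, with Fdft1 the lowest (0.471, and 0.507 for Lss) and Fdps the highest (0.782, and 0.616 for Sqle). Outside the lists of sterol and lipid genes, the 5 genes whose pattern over the 9 libraries was most like the mean of the 8 were Rangap1 (r = 0.95), Acsl3 (0.925), Rrp12 (0.921), Pdcd11 (0.917) and Eps15l1 (0.917). Rangap1 encodes the GTPase activator of Ran, Acsl3 a long-chain acyl-CoA synthetase, Rrp12 and Pdcd11 ribosome biogenesis factors, and Eps15l1 an endocytic adaptor. Without Cre control 1 these values were between 0.762 and 0.877, and the 5 genes were picked as the highest of all genes tested.

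**Figure D3:**
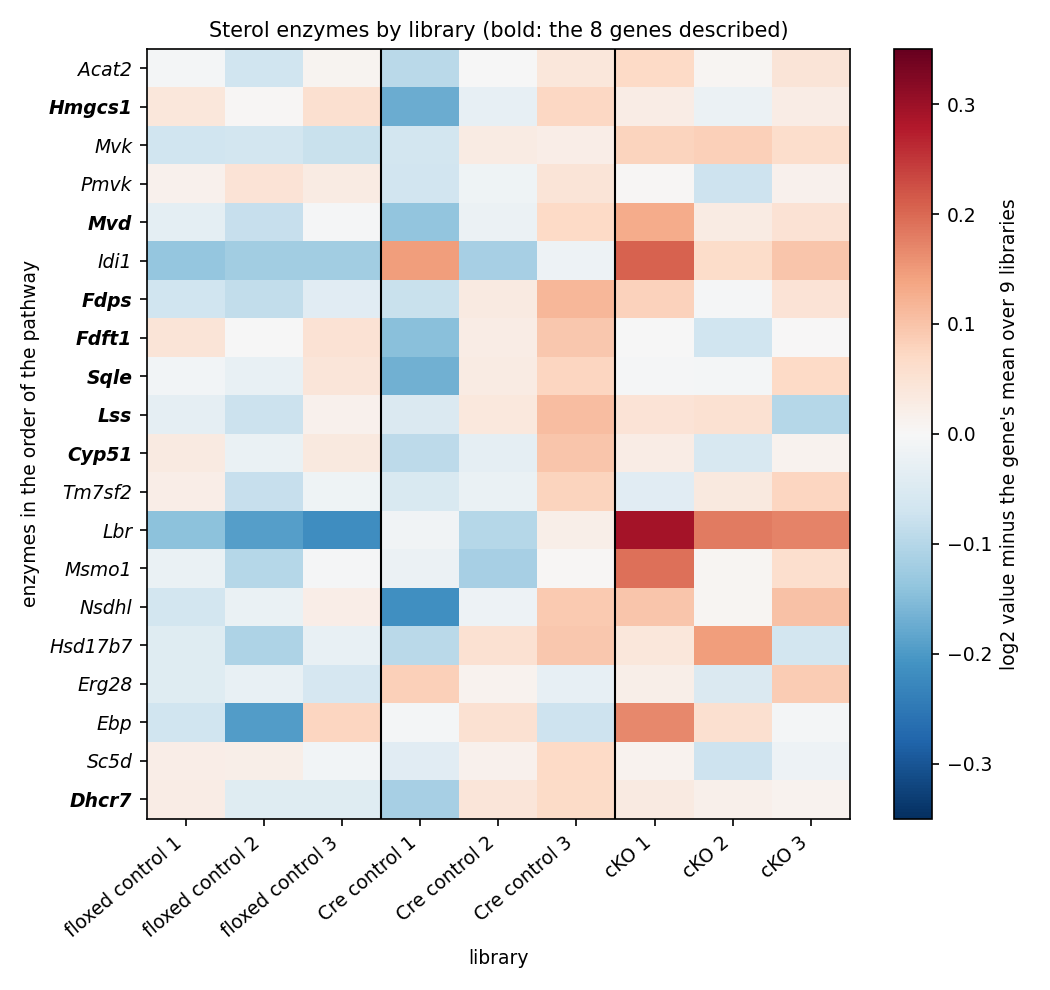
Log2 value of 20 sterol pathway genes in 9 libraries, each minus the gene's mean (red above, blue below), in the order of the pathway, with the 8 genes in bold. The blue column is Cre control 1 and the red column beside the cKO libraries is Cre control 3 for most of the 8 genes, while Lbr, Mvk and Idi1 are red in the cKO libraries.

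The pathway has other genes, mostly enzymes, and a list of 12 of them, called the other enzymes for short, was tested in the same fit. In cKO 3 of 12 were higher than the floxed control and 0 lower, 25.0% against the 38.3% of all genes. They were Lbr (0.40, SE 0.048, adjusted p = 0.000552 with limma), a nuclear envelope protein that also reduces a sterol intermediate, Idi1 (0.25, SE 0.063, adjusted p = 0.0121), the isomerase of isopentenyl diphosphate, and Mvk (0.15, SE 0.039, adjusted p = 0.0157), the mevalonate kinase. Against the Cre control 1 of 12 was higher, Lbr (0.25, adjusted p = 0.0182), 8.33% against 9.72%, and 0 of 12 passed between the controls. None of these reached the 1.5-fold limit. The median difference of the 12 was 0.095 with the floxed control as reference and 0.069 with the Cre control, where all genes had 0.011 and 0.012.

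Lbr was at 10.59, 10.54 and 10.52 in the floxed control and at 10.73, 10.64 and 10.76 in the Cre control. In cKO it was at 11.03, 10.92 and 10.91. Every cKO library was thus above every control, and every Cre control was above the floxed controls. The step between the controls did not pass for Lbr (0.154, adjusted p = 0.188 with limma). For Idi1 the values were 11.80, 11.81 and 11.82, then 12.08, 11.82 and 11.92, then 12.14, 12.0 and 12.03, and Cre control 1, the library lowest for most of the 8 genes, was inside the cKO range. Mvk was at 10.20, 10.21 and 10.19 in the floxed control and at 10.21, 10.30 and 10.29 in the Cre control. Its cKO libraries, at 10.35, 10.36 and 10.33, were above both controls, though Mvk did not pass against the Cre control (0.079, adjusted p = 0.211). Groups without overlap, as for Lbr and Mvk here, were common among all genes. Their share was 57.1% with cKO set beside the floxed controls and 31.5% beside the Cre controls. For the pair of control groups it was 22.8%.

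The call of Lbr was less firm against the Cre control, where it was lost when cKO 1 or Cre control 2 was left out (adjusted p = 0.0714 and 0.0525 with limma). With the floxed control as reference Lbr passed with any library left out, while Idi1 did not without cKO 1 (adjusted p = 0.0522) and Mvk not without cKO 2 or floxed control 3 (0.0517 and 0.0521). With a choroid plexus covariate, which was added once the data had been seen, neither Idi1 (0.226, adjusted p = 0.0727) nor Mvk (0.152, adjusted p = 0.0613) passed there, and their differences changed little. Without Cre control 1, Idi1 also passed against the Cre control (0.19, adjusted p = 0.0212), and the count there was 2 of 12, while the share of all genes called rose to 23.5%.

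The other genes of the list did not pass in these comparisons. Msmo1, a methyl sterol oxidase, had 0.129 (adjusted p = 0.0911) with the floxed control as reference and 0.131 (adjusted p = 0.149) with the Cre control. Of the 12, Nsdhl (r = 0.883) and Acat2 (0.881) followed the mean of the 8 genes over the libraries most, and Idi1 (-0.118) and Erg28 (-0.373) least. Without Cre control 1 these values were 0.681, 0.777, 0.374 and 0.134, so both negative values turned positive, and Pmvk (0.188), Ebp (0.337) and Mvk (0.364) were then below Idi1.

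**Figure D4:**
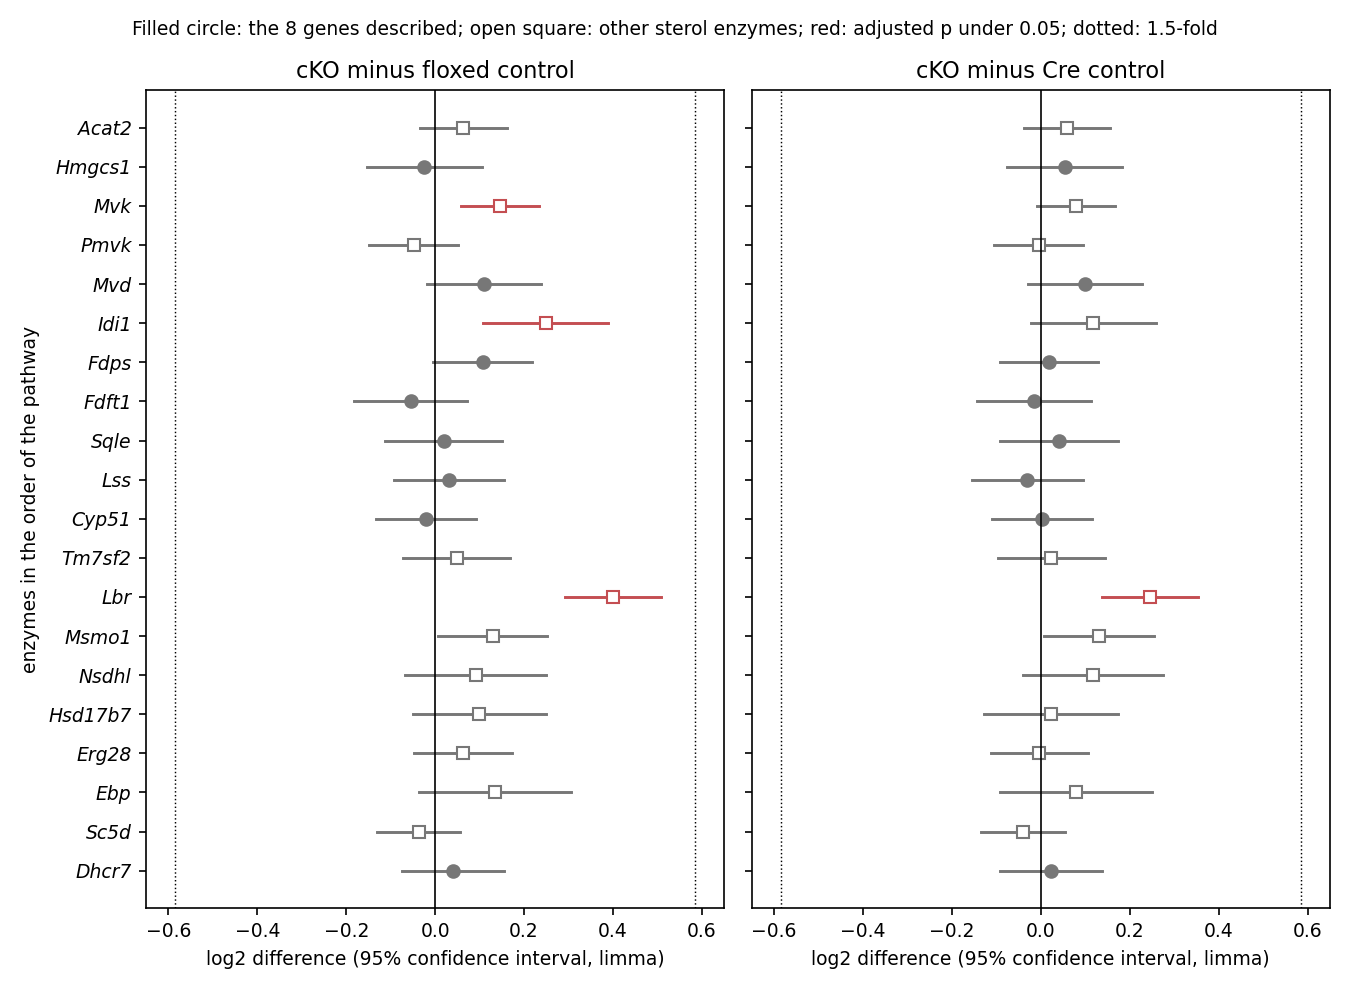
Log2 difference with its 95% interval from limma for 20 sterol pathway genes in the order of the pathway, cKO against the floxed control (left) and the Cre control (right). Filled circles are the 8 genes, open squares the other enzymes, red marks an adjusted p under 0.05 and dotted lines a 1.5-fold change; the red points are Mvk, Idi1 and Lbr on the left and Lbr on the right.

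Within a library, a pair of enzymes that act at the same step gives a ratio that needs no scaling between libraries. The pair was picked after its values were seen and carries no test, and Lbr was already called against both controls. The log2 value of Lbr minus that of Tm7sf2, the other reductase of the same step, was 1.2, 1.25 and 1.17 in the floxed control, 1.41, 1.29 and 1.31 in the Cre control and 1.7, 1.51 and 1.46 in cKO. The groups did not overlap, with the Cre controls between the floxed controls and cKO. Idi1 minus Mvd, a further pair taken from neighbouring steps, was 2, 2.07 and 1.99 in the floxed control. It was 2.39, 2.01 and 2.02 in the Cre control and 2.18, 2.14 and 2.15 in cKO. For this pair the cKO libraries were above the floxed controls and inside the range of the Cre controls.

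The genes that control or supply the pathway were counted in further lists. Of 14 genes of SREBP control, 3 exceeded the floxed control in cKO and 0 were lower, 21.4% where 38.3% of all genes passed. They were Mbtps1 (0.23, adjusted p = 0.00248 with limma), the site-1 protease that cuts SREBP, Insig1 (0.15, adjusted p = 0.0137), which holds SREBP in the endoplasmic reticulum, and Srebf1 (0.12, adjusted p = 0.0396). Srebf2, the gene of the main factor for the sterol genes, was at 12.74, 12.71 and 12.77 in the floxed control, at 12.57, 12.76 and 12.79 in the Cre control and at 12.82, 12.80 and 12.75 in cKO, and did not pass (0.048, adjusted p = 0.522, and 0.085, adjusted p = 0.342 against the Cre control). Its groups overlapped, and Cre control 1 was again the lowest library. Against the Cre control 2 of 14 passed, 14.3% where 9.72% of all genes did. They were Srebf1 (0.17, adjusted p = 0.0343 with limma) and Mbtps1 (0.14, adjusted p = 0.0499). This count was 0 when Cre control 2, Cre control 3 or any cKO library was left out, where 1.69% to 6.02% of all genes passed. With the floxed control the count was 1 without cKO 1 or without floxed control 3, where 25.7% and 26.7% of all genes passed. Srebf1 lost its call against the floxed control with any of the 6 libraries left out (adjusted p from 0.0532 to 0.145 with limma).

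Of 9 uptake and trafficking genes, 3 were higher and 1 lower against the floxed control, 44.4% where 38.3% of all genes passed. Scarb1, an HDL receptor, was higher against both controls (0.25, adjusted p = 0.00716 with limma, and 0.29, adjusted p = 0.0178), and Npc2 and Stard4, sterol carriers of the lysosome and the cytosol, were higher against the floxed control alone (each 0.19). Scarb1 lost its call against the Cre control without cKO 1, cKO 2 or Cre control 3 (adjusted p from 0.0547 to 0.0697), and Stard4 lost its call without cKO 1, floxed control 1 or floxed control 3 (0.0624 to 0.068). Vldlr, a lipoprotein and reelin receptor, was lower (-0.26, adjusted p = 0.00505). Against the Cre control 1 of 9 passed, Scarb1, 11.1% where 9.72% of all genes did, and without Cre control 1 the count was 5, where 23.5% of all genes passed.

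Of 14 tested genes of LXR targets, efflux, esterification and oxysterols, 1 was higher and 1 lower against the floxed control, 14.3% where 38.3% of all genes passed. With the Cre control as reference 0 passed, where 9.72% of all genes did. There 3 had an unadjusted p under 0.05, against 29.3% of all genes, and 3 were called without Cre control 1, against 23.5% of all genes. The 2 called with the floxed control as reference were Cyp27a1 (0.30, adjusted p = 0.00239 with limma), an oxysterol-forming enzyme with low values, and Abcg4 (-0.33, adjusted p = 0.00733), a sterol exporter. Abca1, the main LXR-driven exporter, varied more between libraries than between genotypes (10.74 to 11.19 over all 9), and Apoe did not pass (0.175, adjusted p = 0.165), though it did without floxed control 2 (0.304, adjusted p = 0.00505). The count of the list was then 6 of 14, where 34.4% of all genes passed. Of 11 fatty acid synthesis genes, 2 were higher against both controls, 18.2% where 38.3% (floxed control) and 9.72% (Cre control) of all genes passed. They were Scd1, a stearoyl-CoA desaturase (0.63 and 0.39), the gene of these lists past the 1.5-fold limit, which it passed against the floxed control, and Elovl5, an elongase (0.30 and 0.22). Scd1 was at 9.56, 9.61 and 9.34 in the floxed control, at 9.69, 9.75 and 9.80 in the Cre control and at 10.23, 10.17 and 10.02 in cKO. None of its groups overlapped. Of all genes, 57.1% did not overlap between cKO and the floxed control, 31.5% between cKO and the Cre control and 22.8% between the controls. Between the controls Scd1 did not pass (0.24, adjusted p = 0.19 with limma). Fasn and Scd2, with far higher values, did not pass (0.033 and 0.108 against the floxed control). With the Cre control as reference the count of 2 fell to 0 without cKO 1, cKO 2 or Cre control 3, where 1.69%, 3.56% and 1.75% of all genes passed. It fell to 1 without cKO 3, where 6.02% did.

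Of 11 genes of the prenyl branch, which share farnesyl diphosphate with the sterols, 2 were higher and 1 lower against the floxed control, 27.3% where 38.3% of all genes passed. With the Cre control as reference 0 passed, where 9.72% of all genes did. There 2 had an unadjusted p under 0.05, against 29.3% of all genes, and 1 was called without Cre control 1, against 23.5% of all genes. Rabggtb, a subunit of the Rab prenyl transferase (0.13, adjusted p = 0.0416 with limma), and Coq2, of ubiquinone synthesis (0.13, adjusted p = 0.0486), were higher, and Ggps1, the geranylgeranyl diphosphate synthase, was lower (-0.14, adjusted p = 0.0363). The count was 0 or 1 when any of the 6 libraries was left out, where 25.7% to 34.4% of all genes passed. In each of the 6 lists 0 genes passed between the controls with limma, where 0.057% of all genes did. In each list 0 to 2 had an unadjusted p under 0.05, against 17.5% of all genes.

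**Figure D5:**
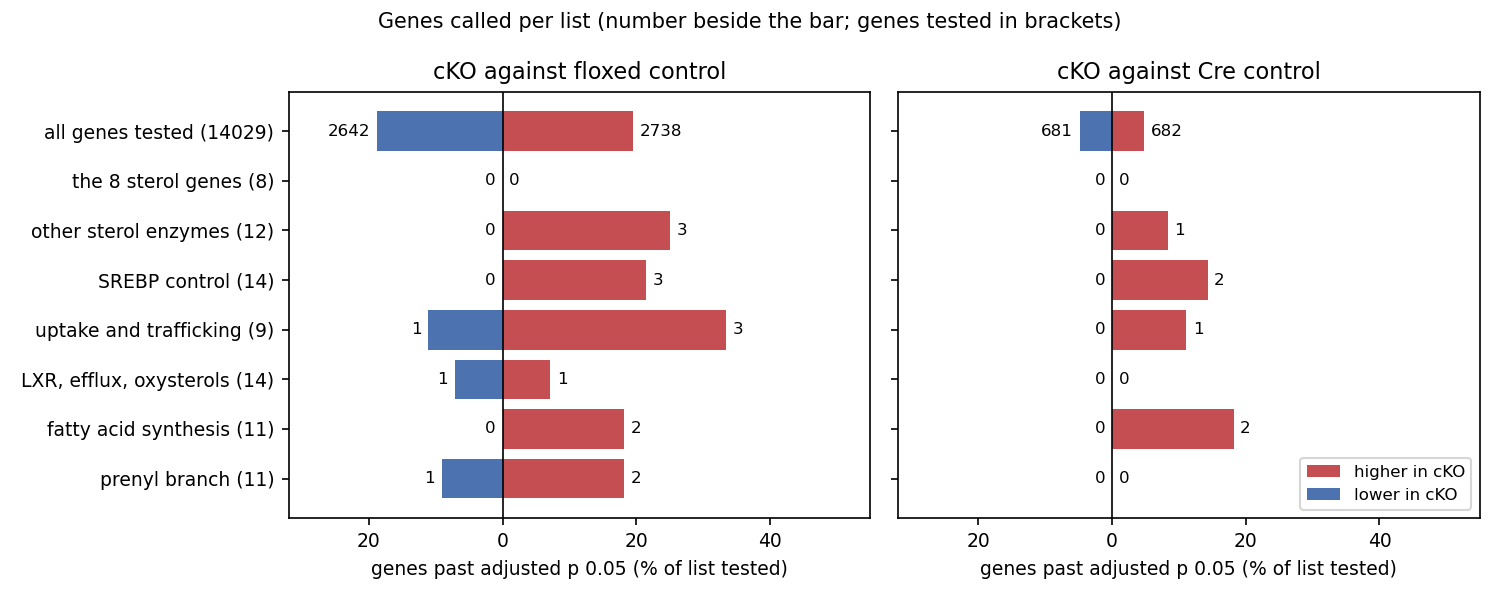
Share of genes past an adjusted p of 0.05 in each list (percent of those tested, red higher and blue lower in cKO, with the number of genes beside each bar), against the floxed control (left) and the Cre control (right). The 8 sterol genes have 0 on both sides in both panels, while 38.3% and 9.72% of all genes tested passed.

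The tissue itself differed between the genotypes, which bears on any level in bulk RNA. In cKO 11 of 11 neuronal markers were below the floxed control, 10 of 10 proliferation markers higher, 7 of 10 erythroid markers higher and 8 of 10 markers of meninges and mesenchyme higher, and against the Cre control the counts were 4, 5, 5 and 0. Of the neural progenitor markers 4 of 9 were higher, and 3 of 9 with the Cre control as reference, and of the endothelial markers 4 of 8 and 0. Of all genes tested 19.5% were higher and 18.8% lower than the floxed control, and 4.86% and 4.85% with the Cre control. The summed level was 17.20 to 17.31, 16.87 to 17.16 and 16.68 to 16.85 for neurons in the floxed control, Cre control and cKO, 15.09 to 15.20, 15.27 to 15.43 and 15.48 to 15.72 for proliferating cells, and 17.22 to 17.99, 17.49 to 17.69 and 17.87 to 18.82 for erythroid cells. Meninges and mesenchyme summed to 14.91 to 15.77, 15.26 to 15.98 and 16.0 to 16.06, and no listed marker was at 0. With the erythroid genes as a covariate the 8 genes had 0 called in all 3 comparisons, and of the other enzymes 1 of 12 passed (Lbr, floxed control) and 0 of 12 (Cre control), while the share of all genes called fell to 3.69% and 0.0927%. The erythroid sums of cKO were all above those of the Cre control, so this covariate overlaps with genotype. With so few genes called, the 0 of 8 says little, and the part of erythroid cells in the lost calls was not tested. The differences of the enzymes that lost their call were 0.238 for Lbr against the Cre control (0.246 without the covariate), and 0.160 for Mvk (0.146) and 0.181 for Idi1 (0.249) against the floxed control. The part of neurons, proliferating cells or meninges in the values of Lbr and the other named genes was not tested.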

How the data were processed

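Poly-A RNA of dissected E13.5 midbrain was sequenced by the authors (3 libraries per genotype). The authors deposited 1 table of log2 values for 27360 rows, normalized between libraries. The transformation is not named, and the unit was read from the values, which reach below 0 and vary less between libraries at low levels. The processing notes name FastQC 0.10.1, kallisto 0.46.1, DESeq2 and mm10 without their roles. The table holds no counts, so depth is unknown, and shrinkage can understate the change of low genes. Genes with a name were tested where 3 libraries or more had at least 1 cpm after conversion to the linear scale (14029 genes, 118 repeated rows dropped). The 3 genotype means were estimated from all 9 libraries in 1 fit by limma 3.58.1 in R 4.3.3 (eBayes with a trend, two-sided tests, Benjamini-Hochberg over all genes tested) and tested on simulated data. A gene was called at an adjusted p under 0.05, and the study's further limit was a fold change over 1.5. With 3 libraries against 3, an exact permutation test cannot go below p = 0.1, and none was run.

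The 8 genes, the pathway lists and the marker lists were chosen with earlier results of these data known. Named in the text are the 8 genes, other pathway genes named in the design, at most 5 further genes of a list with the smallest adjusted p against the floxed control, and the 5 genes outside the lists with the highest r. Alternatives were other filters, normalizations, covariates and call limits, a replicate block and leaving out each library; choroid plexus genes as a covariate were added after seeing the data. Coordinates are from GENCODE M21 and promoters from RefSeq, drawn figures from matplotlib 3.10.9. Some listed genes are not reported here and were left out of the lists and figures, though not of the fit.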

Additional observations from a re-analysis of the deposited data

How the results depend on the processing

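In all 18 alternatives of each comparison 0 of the 8 genes were called, with the exception of 1 (Fdps) against the floxed control with only the 6 libraries compared and 1 (Fdps) with quantile normalization. There 44.3% and 38.4% of all genes passed. The count of other sterol enzymes against the Cre control was 1. It was 0 with the fold limit, where 0.563% of all genes passed, and 0 with erythroid genes as a covariate (0.0927%). It was 0 with only the 6 libraries compared (3.11%) and 2 at an unadjusted p under 0.05 (29.3%). With a library left out it was 0 to 2, where 1.69% to 23.5% of all genes passed. Against the floxed control the count was 3. It was 0 with the fold limit, where 2.92% of all genes passed. It was 1 with erythroid genes (3.69%) and 1 with choroid plexus genes (27.9%) as a covariate. Between the controls it was 1 at an unadjusted p under 0.05, against 17.5% of all genes. The cause was not tested.

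The 8 genes had differences near 0, and signs turned. With a library left out the range against the Cre control was -0.0391 to 0.0543 for Cyp51, -0.034 to 0.0574 for Dhcr7, -0.0835 to 0.0372 for Fdft1, -0.0317 to 0.0644 for Fdps, -0.0115 to 0.111 for Hmgcs1, -0.0713 to 0.0202 for Lss, -0.0316 to 0.0897 for Sqle and -0.121 to 0.0822 for Abca1. Against the floxed control it was -0.0394 to 0.00515 for Cyp51, -0.00587 to 0.0391 for Sqle, -0.167 to 0.0282 for Abca1 and -0.0134 to 0.0676 for Fasn, and between the controls -0.0745 to 0.0189 for Cyp51, -0.0178 to 0.0736 for Dhcr7, -0.0923 to 0.0284 for Fdft1, -0.0393 to 0.0636 for Mvd and -0.0708 to 0.0505 for Sqle. Quantile normalization gave -0.0159 for Cyp51, -0.00903 for Hmgcs1 and 0.00186 for Abca1 against the Cre control, -0.0144 for Fasn against the floxed control, and 0.00822 for Cyp51 and 0.0071 for Sqle between the controls. Centring on medians gave -0.00775 for Cyp51 against the Cre control. With erythroid genes as a covariate the values against the Cre control were 0.138 for Abca1, -0.0795 for Apoe, -0.00149 for Cyp51 and 0.0578 for Lss, and 0.0842 for Abca1 against the floxed control. With Y-linked genes as a covariate they were -0.00942 for Cyp51 against the Cre control, -0.00596 for Fasn and -0.0118 for Sqle against the floxed control, and -0.00217 for Mvd between the controls. With choroid plexus genes, a covariate chosen after seeing the data, they were 0.000985 for Abca1 and -0.00107 for Cyp51 against the Cre control, and -0.00377 for Dhcr7 and -0.00508 for Mvd between the controls. None of these values passed. Of 18 alternatives, the call against the Cre control was lost in 13 for Mbtps1, 8 for Srebf1, 7 for Elovl5 and 5 each for Lbr, Scarb1 and Scd1, and against the floxed control in 14 for Coq2, 13 each for Rabggtb and Srebf1, 10 for Ggps1, 6 for Stard4, 5 each for Insig1 and Mvk and 4 for Idi1; the other named genes lost a call in 2 or fewer.

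With a replicate block 0 of the 8 genes were called in each comparison, and 5683, 1774 and 9 of all genes were. With this block Msmo1 passed against the floxed control (adjusted p = 0.039 with limma), while Coq2 there (0.0508) did not. Deviations from the genotype means correlated at -0.027 to 0.26 (median 0.1) between libraries of the same number and -0.28 to 0.16 (median -0.053) between others. The labels give no litter or batch for a number, and whether same-numbered libraries shared one was not tested. Of 5380 genes called against the floxed control, 518 were called with erythroid genes as a covariate and 410 with the fold limit. Against the Cre control 1363 became 873 with no filter, 437 with only the 6 libraries, 13 with erythroid genes, 79 with the fold limit, 4109 at an unadjusted p and 237 to 3292 with a library left out (237 without cKO 1, 3292 without Cre control 1). Between the controls 8 became 1 to 57 with a library left out and 2451 at an unadjusted p. Depth is unknown, 3 libraries per genotype limit the precision, and differences well under the interval widths given could not be seen.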
